A study of Mus musculus with 10 samples.

Results

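The DNA methylomes of 2 mouse leukaemia models carrying the same Dnmt3b knockin were compared in 5 libraries: cMyc-Bcl2 knockin (n = 2) and MLL-AF9 knockin (n = 3). Autosomal CpGs read at least 10 times in all 5 libraries (461379 of 5677739 listed) were summed in 1-kb windows holding at least 3 of them, which gave 39036 windows. A window was called separated when every library of one model lay at least 25 percentage points beyond every library of the other. There were 711 separated windows, 330 with cMyc-Bcl2 higher (0.845% of windows) and 381 with MLL-AF9 higher (0.976% of windows). Which direction had more windows depended on the filters: with at least 20 reads per CpG there were 148 and 87, and with at least 5 CpGs per window 156 and 81. Because these values chose the windows, their size in the knockin libraries is given as a description and was not tested. The question is how far the models lie apart when both carry the knockin.

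All 10 libraries of the series are genomic DNA of leukaemic spleen, profiled by reduced representation bisulfite sequencing, in which MspI-cut, size-selected fragments are sequenced after bisulfite conversion. The cMyc-Bcl2 leukaemias are driven by the transcription factor cMyc together with the apoptosis inhibitor Bcl2, and their spleen cells carry no sort in the labels. The MLL-AF9 leukaemias are driven by a fusion of MLL with AF9 and were taken as c-kit+ spleen cells, so the oncogene and the sort cannot be told apart. The knockin is a tetracycline-inducible Dnmt3b allele for high Dnmt3b expression, and the remaining 5 libraries are its WT counterparts, cMyc-Bcl2 WT (n = 2) and MLL-AF9 WT (n = 3). The labels give no age, strain or inducer schedule and no promoter behind either oncogene, and they do not say that libraries came from separate animals, so each p-value below refers to library-to-library spread alone, which may be technical. Expression was not measured, so neither Dnmt3b level nor the cell types in the spleens could be checked from RNA.

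Dnmt3b is a de novo DNA methyltransferase: it adds methyl groups to cytosines of CpG dinucleotides that were not methylated before. In normal mammalian cells CpG-dense promoters, the CpG islands, are mostly free of methylation, while scattered CpGs elsewhere are mostly methylated. In leukaemia CpG islands can gain methylation and scattered CpGs can lose it, and patterns also differ by cell of origin.

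The knockin libraries held 17564574 to 44388796 read calls, and the median depth of the CpGs used was 49 and 42 reads in cMyc-Bcl2, against 22, 32 and 41 in MLL-AF9 replicates 1, 2 and 3. Mitochondrial CpGs, a guide to unconverted cytosines, were read as methylated in 0.926 and 1.15% of cMyc-Bcl2 calls and in 2.57, 3.20 and 2.01% of MLL-AF9 calls. The WT libraries held 14446933 to 46762220 read calls. Their median depth at the same CpGs was 23 and 57 reads in cMyc-Bcl2 WT and 20, 27 and 17 in MLL-AF9 WT. Their mitochondrial shares were 2.22 and 0.910% in cMyc-Bcl2 WT and 1.82, 2.42 and 2.59% in MLL-AF9 WT. In cMyc-Bcl2 knockin replicate 1 the relative depth was 1.35 on chromosome 16 and 1.16 on chromosome 15, and in cMyc-Bcl2 WT replicate 2 it was 1.30 on chromosome 15. MLL-AF9 knockin replicate 1 had 1764 read calls on chromosome Y, where the other 4 knockin libraries had 97 to 233, and sex was handled only by leaving out X and Y. Without chromosomes 15 and 16 there were 302 and 351 separated windows, and without MLL-AF9 knockin replicate 1 there were 531 and 469, the second pair being larger in part because a window then has fewer libraries to separate.

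Of the separated promoters, 6 with cMyc-Bcl2 higher and the 2 with MLL-AF9 higher are printed as RefSeq sequences. Over the same letters, the level summed over the measured CpGs was at least 25 points higher in one model than in the other. Each runs 5′ to 3′ on the gene's strand, from 250 bases before to 50 bases after the transcription start, with the CpGs that were measured in all 5 libraries in capitals. The sequences are from RefSeq, build GRCm38.p6, and the mm9 positions are those at which the CpG pattern of the sequence matched the measured positions of the files.
S1pr5, mm9 chr9:21052838-21053137, minus strand: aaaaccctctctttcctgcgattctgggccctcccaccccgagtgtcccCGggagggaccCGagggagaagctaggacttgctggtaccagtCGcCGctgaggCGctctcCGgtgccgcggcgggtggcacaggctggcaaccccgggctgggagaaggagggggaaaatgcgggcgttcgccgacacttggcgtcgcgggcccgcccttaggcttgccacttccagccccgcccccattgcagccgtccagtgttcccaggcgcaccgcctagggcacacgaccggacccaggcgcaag
Lgi2, mm9 chr5:52957496-52957795, minus strand: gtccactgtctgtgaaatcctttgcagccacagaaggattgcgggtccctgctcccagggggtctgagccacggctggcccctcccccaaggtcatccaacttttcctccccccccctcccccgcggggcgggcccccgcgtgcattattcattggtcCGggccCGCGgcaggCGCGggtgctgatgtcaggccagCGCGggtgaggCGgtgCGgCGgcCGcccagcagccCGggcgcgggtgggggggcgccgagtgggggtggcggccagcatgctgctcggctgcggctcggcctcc
Begain, mm9 chr12:110291259-110291558, minus strand: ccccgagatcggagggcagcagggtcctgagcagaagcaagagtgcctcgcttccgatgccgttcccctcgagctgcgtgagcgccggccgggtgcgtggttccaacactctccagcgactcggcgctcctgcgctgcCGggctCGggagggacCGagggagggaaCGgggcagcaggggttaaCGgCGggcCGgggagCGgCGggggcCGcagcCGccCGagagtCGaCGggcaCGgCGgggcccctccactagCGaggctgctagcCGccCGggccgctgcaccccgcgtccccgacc
Vldlr, mm9 chr19:27291260-27291559, plus strand: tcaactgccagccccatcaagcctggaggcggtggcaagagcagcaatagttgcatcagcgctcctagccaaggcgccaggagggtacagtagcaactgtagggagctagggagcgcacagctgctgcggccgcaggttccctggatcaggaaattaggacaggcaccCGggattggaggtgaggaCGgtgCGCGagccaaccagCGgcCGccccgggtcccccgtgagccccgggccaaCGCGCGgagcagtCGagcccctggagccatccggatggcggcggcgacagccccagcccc
Ctnna2, mm9 chr6:77929612-77929911, minus strand: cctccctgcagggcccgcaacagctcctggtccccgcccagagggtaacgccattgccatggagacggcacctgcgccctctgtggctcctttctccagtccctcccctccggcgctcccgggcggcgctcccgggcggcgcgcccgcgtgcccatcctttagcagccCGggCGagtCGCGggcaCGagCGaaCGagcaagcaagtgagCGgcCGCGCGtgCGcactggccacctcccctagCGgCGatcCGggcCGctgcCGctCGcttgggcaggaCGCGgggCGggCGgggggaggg
Fam83b, mm9 chr9:76414873-76415172, minus strand: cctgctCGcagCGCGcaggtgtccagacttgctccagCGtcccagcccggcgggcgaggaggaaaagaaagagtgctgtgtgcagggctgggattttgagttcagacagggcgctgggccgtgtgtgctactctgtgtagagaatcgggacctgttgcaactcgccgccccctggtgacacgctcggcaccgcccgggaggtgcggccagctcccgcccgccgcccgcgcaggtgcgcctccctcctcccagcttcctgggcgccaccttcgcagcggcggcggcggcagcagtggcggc

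In each of these 6 promoters the 2 cMyc-Bcl2 knockin libraries were the higher ones, as the rule requires. Not every capital CpG was separated without overlap. The counts were 5 of 6 in S1pr5, 11 of 12 in Lgi2, 17 of 19 in Begain, 7 of 10 in Vldlr, 16 of 22 in Ctnna2 and 4 of 4 in Fam83b. The cMyc-Bcl2 means of single CpGs ran from 0 to 69.0% in Begain and from 3.90 to 89.4% in Ctnna2. The 300 bases of S1pr5 held 27 CpGs, of which 6 were measured, and those of Ctnna2 held 38, of which 22 were measured. The MspI site CCGG, which reads the same on both strands, occurred 4 times in S1pr5, 2 times in Lgi2, 5 times in Begain, 4 times in Vldlr, 5 times in Ctnna2 and 2 times in Fam83b. It occurs in 53.5% of the 31396 autosomal promoter sequences, and only CpGs close to such sites are read in this assay. The promoters with MLL-AF9 higher were those of Rtkn and Arhgef18.
Rtkn, mm9 chr6:83085552-83085851, plus strand: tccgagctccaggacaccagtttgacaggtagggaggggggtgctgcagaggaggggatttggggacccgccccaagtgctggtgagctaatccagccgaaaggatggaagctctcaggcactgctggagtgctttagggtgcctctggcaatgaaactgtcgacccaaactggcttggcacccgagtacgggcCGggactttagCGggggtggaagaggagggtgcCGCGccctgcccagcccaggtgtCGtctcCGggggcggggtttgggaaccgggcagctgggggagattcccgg
Arhgef18, mm9 chr8:3392758-3393057, plus strand: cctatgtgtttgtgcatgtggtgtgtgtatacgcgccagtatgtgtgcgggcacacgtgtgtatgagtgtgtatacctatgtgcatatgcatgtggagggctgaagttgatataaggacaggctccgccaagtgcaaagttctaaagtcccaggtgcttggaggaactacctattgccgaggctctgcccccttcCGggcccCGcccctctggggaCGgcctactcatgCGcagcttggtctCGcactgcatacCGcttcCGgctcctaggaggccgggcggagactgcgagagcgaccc

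The Rtkn promoter held 15 CpGs, of which 6 were measured, and that of Arhgef18 held 17, of which 8 were measured. All measured CpGs of these promoters were separated without overlap.

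Over all CpGs the models did not differ in mean methylation beyond the spread of their libraries. With each CpG weighted once, the level was 27.7 and 26.6% in cMyc-Bcl2 knockin and 27.0, 26.6 and 25.5% in MLL-AF9 knockin, so the groups overlapped. The means were 27.2% ± 0.817 (SD, n = 2) and 26.4% ± 0.793 (SD, n = 3), a difference of 0.799 points (two-sided exact permutation p = 0.6; the 10 arrangements cannot give less than 0.2). A mean in which every read counts once had the opposite sign, at -2.38 points (exact permutation p = 0.4).

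Beneath near-equal means, the sign of the difference varied with CpG density, counted as the CpGs listed in any library per 1-kb window. In windows with under 20 CpGs, cMyc-Bcl2 stood at 74.8 and 72.6% and MLL-AF9 at 76.8, 76.1 and 74.8%, a difference of -2.22 points over 118875 CpGs. Here MLL-AF9 knockin was the higher model, though the nearest libraries of the 2 models both stood at 74.8%. In windows with 20 to 59 CpGs the values were 18.5 and 17.4% in cMyc-Bcl2, against 16.6, 15.97 and 14.6% in MLL-AF9, a difference of 2.18 points over 147776 CpGs. In windows with 60 or more CpGs they were 6.04 and 5.46% against 4.49, 4.42 and 3.56%, a difference of 1.59 points over 194728 CpGs. Both denser classes were thus higher in cMyc-Bcl2, with no overlap between groups. Each of the 3 differences had an exact two-sided permutation p of 0.2, the smallest this design allows, so none could pass at 0.05 (0.4 after Benjamini-Hochberg adjustment over 12 tests of means).

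The separated windows with cMyc-Bcl2 higher had a median of 74.4% in cMyc-Bcl2 and 23.7% in MLL-AF9. Those with MLL-AF9 higher had a median of 87.3% in MLL-AF9 and 33.9% in cMyc-Bcl2. The largest mean difference was 82.6 points with cMyc-Bcl2 higher and 94.5 points with MLL-AF9 higher. A mean of at least 80% in one model and at most 20% in the other was reached in 13 and 34 windows. The windows were small samples of the genome, with a median of 4 and 3 CpGs, and the least-covered library had a median of 90 and 69 reads per window, so counting error of several points enters each level.

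**Figure D1:**
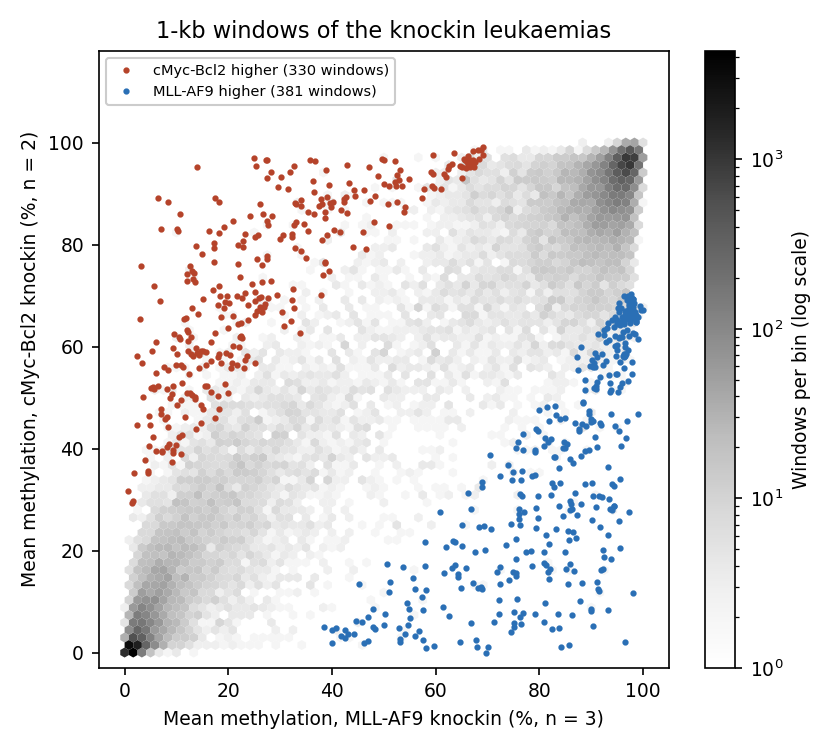
Mean methylation of each 1-kb window in MLL-AF9 knockin (x axis, %, n = 3) and cMyc-Bcl2 knockin (y axis, %, n = 2), in percent. Grey bins count all 39036 windows on a log scale, and coloured points are the separated windows, 330 with cMyc-Bcl2 higher above the diagonal and 381 with MLL-AF9 higher below it.

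The strands of a CpG were also read apart. Of the separated windows, 305 with cMyc-Bcl2 higher and 344 with MLL-AF9 higher had reads on both strands, and in 98.0 and 95.6% of these both strands were higher in the same model, a direction that the choice of windows on summed reads largely fixes. Each strand alone reached the gap of 25 points in 138 (45.2%) and 199 (57.8%). Every CpG of the window was separated in the same direction in 186 of 330 and 250 of 381 windows. The choice on the sum of these CpGs, a median of 4 and 3 per window, favours this. The share over all windows was not counted, so it adds no support.

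In the fit across all windows, a quasi-binomial model of methylated and unmethylated reads with limma-moderated dispersion, 2547 windows (6.52%) had a Benjamini-Hochberg adjusted p below 0.05. With the further demand that means lie 25 points or more apart, 596 windows were called higher in cMyc-Bcl2 (1.53% of windows) and 547 higher in MLL-AF9 (1.4% of windows). Of the separated windows 310 and 356 were among them, which the shared values make likely and which adds no support. These calls depend on single libraries of both models. Without MLL-AF9 knockin replicate 1 there were 86 and 64 calls, and without its replicate 2 or replicate 3 the quasi-binomial fit gave 0 each way, with 7832 and 7470 windows at an unadjusted p below 0.05. limma on M-values of the same reads gave 6 calls without replicate 2, all 6 with MLL-AF9 higher, and 0 without replicate 3 (7681 at an unadjusted p below 0.05). Without cMyc-Bcl2 knockin replicate 1 the quasi-binomial fit gave 583 and 826 calls, and without its replicate 2 it gave 894 and 494, with a single cMyc-Bcl2 library taken to vary like the MLL-AF9 ones. limma on M-values gave 0 calls without either (7996 and 7270 at an unadjusted p below 0.05), where with all 5 libraries it gave 329 and 404, the opposite order to the quasi-binomial counts.

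CpG density divided the 2 directions. Of the windows with cMyc-Bcl2 higher, 196 lay in the class with under 20 CpGs, 111 in that with 20 to 59 and 23 in that with 60 or more. Of those with MLL-AF9 higher, 334 lay in the sparsest class, 42 in the middle one and 5 in the densest. As shares of the class, cMyc-Bcl2 was higher in 1.02, 0.839 and 0.347% of windows and MLL-AF9 in 1.74, 0.318 and 0.0755%, from sparse to dense. cMyc-Bcl2-higher windows were therefore the more frequent in both denser classes, and MLL-AF9-higher windows in sparse sequence at this depth. The second order did not hold under stricter filters: sparse windows numbered 66 and 66 with at least 20 reads per CpG and 57 and 56 with at least 5 CpGs per window. The first did, with 64 and 18 windows of the middle class at 20 reads and 78 and 20 at 5 CpGs. With at least 20 reads per CpG the densest class held 18 and 3 windows, and without each knockin library in turn 24 to 105 and 6 to 14.

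Position also divided them, but position and CpG density were not separated from each other. A start was placed only where at least 12 positions matched, which favours CpG-rich, covered promoters. Windows within 500 bp of one had median levels of 0.873% in cMyc-Bcl2 and 1.51% in MLL-AF9. In the densest class these were 0.869 and 1.41%. Windows far from a placed start may lie at starts that were not placed. Transcription starts could be placed for 8616 genes, those whose RefSeq promoter sequence matched the CpG positions of the files. Within 500 bp of such a start, 34 windows were higher in cMyc-Bcl2 and 5 in MLL-AF9, 0.422 and 0.0621% of the 8056 windows there. From 500 bp to 5 kb the counts were 30 and 45 of 3635 windows, from 5 to 50 kb they were 117 and 146 of 10617, and beyond 50 kb 137 and 178 of 15613. The stricter filters were not run by position. The 5 windows near a start with MLL-AF9 higher lay at Rtkn, at Arhgef18 (2 adjacent windows), at mm9 chr1:39778256-39778349 and at mm9 chr2:167364048-167364075, and were chosen after their values were seen. Genes that could not be placed, and exons and introns, were not analysed here.

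**Figure D2:**
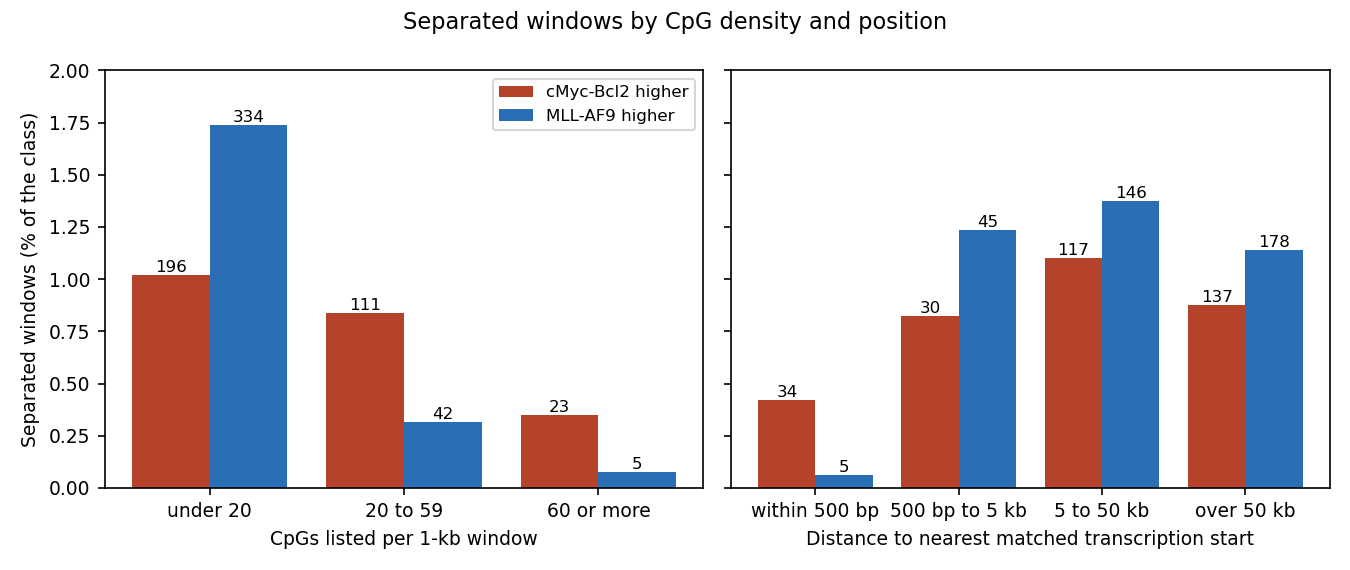
Share of 1-kb windows that were separated (y axis, % of the windows of a class) by CpGs listed per window (left) and by distance to the nearest matched transcription start (right), with the number of separated windows above each bar. cMyc-Bcl2-higher windows (red) exceed MLL-AF9-higher windows (blue) in the classes with 20 or more CpGs and within 500 bp of a start, and the order is the other way elsewhere; in sparse windows that order is absent with at least 20 reads per CpG (66 and 66 windows).

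Most separated windows had no other of their direction within 5 kb. With windows at most 5 kb apart joined, 10 pairs formed with cMyc-Bcl2 higher and 7 with MLL-AF9 higher, and no group of 3. How many windows had any measured neighbour that near was not counted, so these counts cannot tell scatter from clustering. Every autosome held both kinds, from 9 to 27 and from 7 to 32 windows. Chromosome 16, deeper in cMyc-Bcl2 knockin replicate 1, held 9 and 13.

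The 8 windows of at least 5 CpGs with the widest gap toward cMyc-Bcl2 had cMyc-Bcl2 means of 72.6 to 96.9% and MLL-AF9 means of 6.53 to 28.3%. The widest of these gaps, 76.6 points, was at mm9 chr13:116001009-116001077, with 85.6 and 92.7% in cMyc-Bcl2, against 8.96, 6.08 and 4.55% in MLL-AF9. That window held 5 listed CpGs, and its nearest matched start was that of Itga1, an integrin subunit, 108871 bp away. At mm9 chr11:101025697-101025836, a CpG-dense stretch of 65 listed CpGs, cMyc-Bcl2 stood at 83.0 and 83.1% and MLL-AF9 at 21.7, 3.64 and 4.81%. This window lay 6850 bp from the start of Plekhh3. At mm9 chr5:118744576-118744803, 7 CpGs stood at 70.4 and 95% against 9.57, 8.75 and 12.6%. Its WT libraries were ordered alike at lower levels in cMyc-Bcl2, with 27.7 and 57.0% against 4.10, 7.94 and 10.9% (limma-moderated adjusted p = 0.143).

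The 8 windows with the widest gap toward MLL-AF9 had MLL-AF9 means of 75.1 to 95.5% and cMyc-Bcl2 means of 1.15 to 34.1%. At mm9 chr10:121187721-121187795, 5 CpGs stood at 0.813 and 1.48% in cMyc-Bcl2, against 91.2, 82.7 and 78.7% in MLL-AF9. At mm9 chr17:35071267-35071723, 3297 bp from the start of the lysosomal sialidase gene Neu1, 17 CpGs with 448 to 1451 reads stood at 6.59 and 5.24% against 89.5, 80.2 and 72.7%. In WT, where 9 CpGs of the window were measured, the values were 14.2 and 26.1% against 54.5, 74.2 and 15.5%, so the WT models overlapped there. At mm9 chr9:44064775-44065000, 122146 bp from the start of the adhesion receptor gene Mcam, 8 CpGs stood at 20.1 and 12.5% against 94.4, 92.3 and 90.0%. The adjoining window at mm9 chr9:44065002-44065044 stood at 22.0 and 18.2% against 91.3, 93.5 and 92.1%, and the 2 form 1 of the 7 pairs. WT libraries of the first were much the same, at 12.5 and 27.9% against 88.6, 92.4 and 86.7% (limma-moderated adjusted p = 0.0527).

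Among the pairs of neighbouring windows, mm9 chr7:148524743-148524824 and mm9 chr7:148525260-148525337, at the shared promoter of Eps8l2 and Deaf1 and just beside it, had means of 39.5 and 96.4% in cMyc-Bcl2, against 7.19 and 36.6% in MLL-AF9. The second of them stood at 87.8 and 88.0% in cMyc-Bcl2 WT and 7.56, 18.3 and 26.2% in MLL-AF9 WT (limma-moderated adjusted p = 0.054). The pair from mm9 chr11:87577736 to 87578279 had means of 84.6 and 93.3% against 20.9 and 30.2%, and its WT libraries overlapped in both windows. With MLL-AF9 higher, the pair at mm9 chr1:133171846-133172471 had means of 53.1 and 89.9% in MLL-AF9 and 2.15 and 8.44% in cMyc-Bcl2.

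The windows nearest to the limit of 25 points are given on both sides of it. Just inside, at mm9 chr15:94234403-94234992, 41 CpGs of a dense window stood at 39.1 and 38.6% in cMyc-Bcl2, against 10.1, 13.6 and 8.74% in MLL-AF9. The other one inside, at mm9 chr2:180689287-180689314, stood at 80.5 and 48.7% against 23.6, 23.7 and 20%. Just outside, mm9 chr7:15272598-15272646 stood at 100 and 96.7% against 71.7, 68.8 and 68.6%, and mm9 chr11:53250572-53250627 at 74.0 and 74.6% against 40.2, 49.1 and 48.1%. Toward MLL-AF9, mm9 chr8:79533428-79533483 (61.1 and 64.7% against 100, 89.7 and 98.9%) and mm9 chr14:59201822-59201852 (35.9 and 41.7% against 75.6, 66.7 and 69.4%) lay inside. Outside on that side lay mm9 chr3:51501684-51501740 and mm9 chr12:8754231-8754287, with cMyc-Bcl2 means of 60.4 and 64.7% and MLL-AF9 means of 90.0 and 94.3%.

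Of 5697 matched promoters measured with at least 3 CpGs, 85.0% stood under 10% in both models. In all, 20 promoters were separated with cMyc-Bcl2 higher (0.351% of promoters) and 2 with MLL-AF9 higher (0.0351% of promoters). Eps8l2 and Deaf1, both among the 20, share the same 7 CpGs, so they are 1 measurement. With at least 20 reads per CpG 8 and 1 promoters were left, and without each knockin library in turn there were 24 to 89 and 3 to 9. The genes in this and the next paragraphs were picked after their values were seen, as the ones past the limit.

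The Ctnna2 promoter, of a neuronal alpha-catenin that links cadherins to actin, stood at 45.1 and 47.0% in cMyc-Bcl2 knockin and at 17.1, 13.2 and 13.6% in MLL-AF9 knockin, over 22 CpGs. That of Begain, a protein of synapses, stood at 42.3 and 39.7% against 9.28, 10.9 and 6.72% over 19 CpGs, and that of Lgi2, a secreted neuronal protein, at 56.0 and 63.5% against 21.5, 12.4 and 7.35% over 12 CpGs. Cnr1, the cannabinoid receptor of neurons, stood at 65.1 and 51.8% against 23.6, 25.1 and 14.8%, and Chl1, an L1-family adhesion molecule, at 32.4 and 30.8% against 0, 0 and 2.22%. In each of these 5 promoters every cMyc-Bcl2 knockin library lay above every MLL-AF9 knockin library, which the rule that chose them requires. No list of neuronal genes was fixed, so no theme is drawn from these names.

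S1pr5, a receptor for sphingosine 1-phosphate, stood at 48.9 and 55.5% in cMyc-Bcl2, against 6.22, 5.37 and 7.45% in MLL-AF9, with 225 to 674 reads per library. Vldlr, the very low density lipoprotein receptor, stood at 47.6 and 37.1% against 7.78, 3.57 and 4.98%. Btg3, an antiproliferative protein of the BTG family, stood at 61.6 and 78.2% against 8.33, 13.5 and 16.2% over 3 CpGs on chromosome 16. The Fam83b promoter stood at 67.1 and 67.4% against 21.2, 15.4 and 13.9% over 4 CpGs. A window over the promoter of Il12a, a subunit of the cytokine interleukin 12, stood at 56.4 and 57.4% against 4.17, 3.03 and 2.84% at mm9 chr3:68495376-68495464. The remaining separated promoters with cMyc-Bcl2 higher were those of 1700012B09Rik, Espnl, Gm36129, Chst8, Tcf20, Pheta2, Them7, Wt1os and Cpxm1. Over all 20, the cMyc-Bcl2 means ran from 31.6 to 85.5% and the MLL-AF9 means from 0.741 to 40.2%.

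In the 2 promoters with MLL-AF9 higher the order was reversed. Rtkn stood at 26.0 and 18.6% in cMyc-Bcl2 knockin and 76.7, 64.6 and 84.9% in MLL-AF9 knockin. Arhgef18, a guanine nucleotide exchange factor, stood at 44.5 and 39.9% against 96.5, 95.3 and 92.0%. In WT the Arhgef18 promoter was ordered alike, with 43.6 and 21.2% against 89.9, 93.0 and 75.5%. The WT libraries of Rtkn overlapped, with 19.7 and 30.6% against 44.4, 79.8 and 24.7%.

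**Figure D3:**
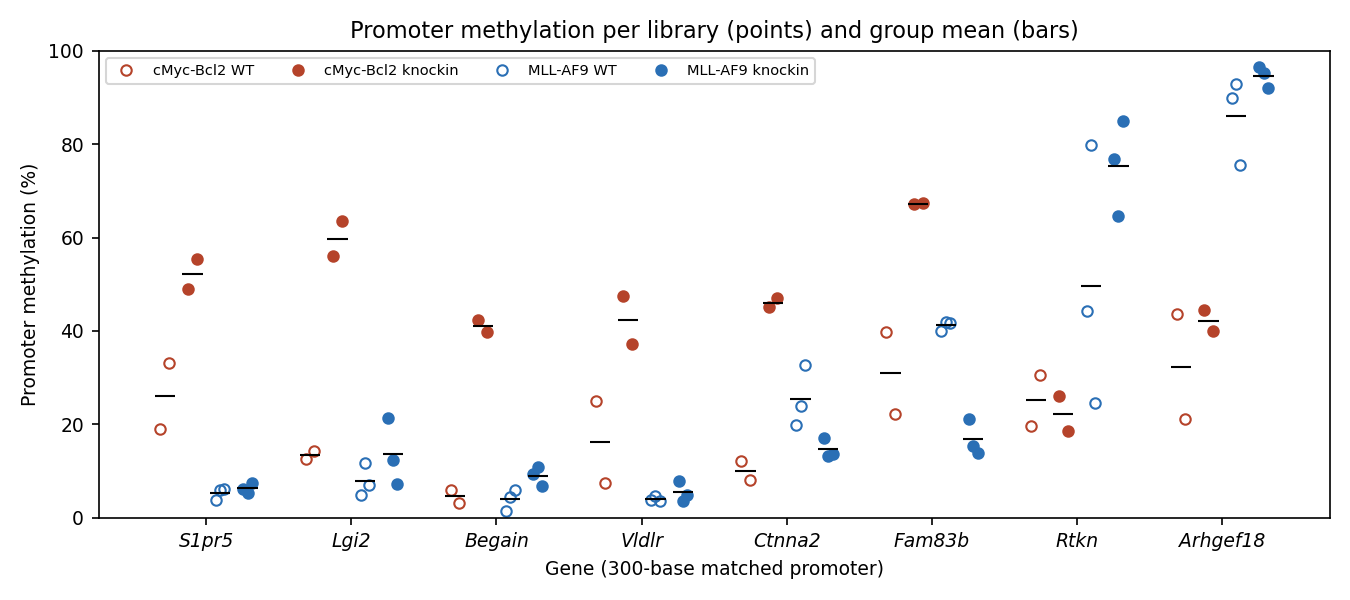
Methylation of 8 promoters (y axis, %) in each of the 10 libraries, with open points for WT, filled points for knockin, red for cMyc-Bcl2, blue for MLL-AF9 and a bar at each group mean. Filled red points lie above filled blue ones by at least 25 points in the first 6 promoters and below them in Rtkn and Arhgef18, while open points of the 2 models lie closer in most.

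The WT libraries, which took no part in choosing the promoters, showed how much of each contrast was there without the knockin. Of the 20 promoters with cMyc-Bcl2 higher, 14 could be measured in WT, or 13 with the CpGs shared by Eps8l2 and Deaf1 counted once. In 9 of these 13 the WT models did not overlap in the same direction, as in 11.95% of the 5054 promoters measured in WT. In knockin 85.0% of measured promoters stood under 10% in both models, so the share over all comes mostly from low levels. Several of the 9 gaps were small: 0.181 points in Wt1os, 0.974 in Lgi2, 1.18 in Cpxm1, 2.86 in Eps8l2 and Deaf1 and 2.88 in Vldlr. The others were 5.52 in Espnl, 12.8 in S1pr5, 20.7 in Btg3 and 51.8 in 1700012B09Rik. The WT gap reached 25 points only in the last (0.0791% of all), at 79.0 and 89.1% against 27.1, 5.56 and 22.2%. In Begain the WT libraries overlapped, at 6.04 and 3.24% in cMyc-Bcl2, against 1.54, 4.57 and 6.02% in MLL-AF9. Lgi2 stood at 12.7 and 14.4% against 4.88, 11.7 and 6.92% in WT. In the promoters of Fam83b and Ctnna2 the WT order was the other way, as in 10.1% of all. Ctnna2 stood at 12.1 and 8.07% in cMyc-Bcl2 WT and 19.8, 24.0 and 32.8% in MLL-AF9 WT. Fam83b stood at 39.7 and 22.2% against 40.0, 41.9 and 41.7%, so its nearest WT libraries were almost level. In 11 of the 13, both cMyc-Bcl2 knockin libraries lay above both cMyc-Bcl2 WT libraries (17.7% of all), and in 5 all MLL-AF9 knockin libraries lay above all MLL-AF9 WT libraries (15.6% of all). Choosing promoters that are high in cMyc-Bcl2 knockin favours the first count. Knockin and WT levels can also rest on different CpGs of a promoter.

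Separated windows of 60 or more CpGs numbered 28. The 23 with cMyc-Bcl2 higher had means of 38.8 to 94.7% in cMyc-Bcl2 and 5.45 to 38.8% in MLL-AF9, and 8 of the 21 with a matched start on their chromosome lay within 500 bp of it. One covered the promoter of Dmrta2, a developmental transcription factor, where 25 CpGs stood at 41.9 and 39.3% against 11.3, 10.7 and 7.58%. Another, of 21 CpGs at the promoter of the neuronal adhesion gene Mdga2, stood at 48.9 and 46.6% against 19.3, 14.9 and 11%. In WT the Dmrta2 window stood at 3.56 and 3.78% against 4.62, 9.29 and 4.55%. Of the 20 dense windows measured in WT, both cMyc-Bcl2 knockin libraries lay above both WT libraries in 20, where 23.7% of all 6432 dense windows measured in both genotypes did so. The 3 MLL-AF9 knockin libraries lay above its WT libraries in 3 of the 20, against 18.8% of all. Both shares carry the choice of windows by their knockin values. Knockin and WT levels here use the CpGs covered in each genotype, such as 38 and 7 at mm9 chr13:72766328-72766794. In 19 of these windows CpGs were shared by all 10 libraries. Over those CpGs the median of knockin minus WT was 36.7 points in cMyc-Bcl2 and 1.90 in MLL-AF9.

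None of the 5 dense windows with MLL-AF9 higher lay within 500 bp of a matched start. The pair of neighbours at mm9 chr5:144015011-144015991 and mm9 chr5:144016002-144016992, of 58 and 37 CpGs, stood at 17.2 and 8.37% against 77.5, 76.5 and 52.3%, and at 39.6 and 51.9% against 94.9, 94.3 and 80.4%. At mm9 chr7:88020657-88020996, 23 CpGs stood at 39.2 and 16.7% against 92.9, 97.8 and 91.0%. This one was called in WT as well, with 58.5 and 54.9% against 96.1, 96.4 and 97.0% (limma-moderated adjusted p = 0.0226). The last 2 lay at mm9 chr14:22804211-22804853 and mm9 chr5:108150569-108150601. All 5 were picked for their class after the data were seen.

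No promoter of the fixed gene lists that could be placed and measured was separated. No separated window covered a placed promoter of any list. Most listed genes were not measured. Wt1, of the developmental list, was among those not measured, while the promoter of Wt1os, named above, was separated. A promoter's methylation is not its expression. Of 16 germline genes known for promoter methylation in somatic cells, 5 were measured (Mael, Sohlh2, Hormad1, Tex101, Ddx4), over 6 promoters, and all 6 stood over 80% in both models. The promoters of Hormad1 share the same 7 CpGs, so they are a single measurement. Mael, for example, stood at 98.6 and 97.8% in cMyc-Bcl2, against 97.9, 97.6 and 97.1% in MLL-AF9, with overlapping groups. Of the 17 HOX and MLL-AF9 target genes 2 were measured, Meis1 and Jmjd1c, both with means under 10% in both models. Meis1, a homeobox partner of HOX proteins, stood at 11.1 and 6.79% against 2.08, 3.54 and 0.741%. Of 28 developmental transcription factors 5 were measured (Pax6, Foxa2, Foxd3, Neurog1, Otx2), over 6 promoters, with differences of 0.523 to 14.99 points. The largest was at Foxa2, at 28.1 and 11.97% against 9.43, 3.00 and 2.75%.

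Among cell type markers, 3 lymphoid genes of 24 (Gata3, Ikzf1, Tcf7), 3 stem and progenitor genes of 11 (Flt3, Gata2, Hhex), 2 stromal and endothelial genes of 9 (Kdr, Col1a2), 0 of 20 myeloid genes and 0 of 8 red cell and megakaryocyte genes were measured. Gata2, a transcription factor of stem and progenitor cells, stood at 7.27 and 5.73% in cMyc-Bcl2, against 1.86, 0.518 and 1.68% in MLL-AF9, with no overlap. Tcf7 stood at 13.1 and 7.05% against 4.39, 6.50 and 2.07%, and Ikzf1, a lymphoid transcription factor, at 0.716 and 0% against 0.443, 2.32 and 0.916%. These markers, too few for any count, left the labelled cell types unchecked, and whether the mix of cells differs between the spleens was not tested.

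Part of the order of the models was present in WT. Of the windows with cMyc-Bcl2 higher, 229 were measured in WT, and cMyc-Bcl2 was the higher WT model in 193 of them (84.3%), against 54% of the 27505 windows measured in both genotypes. The WT libraries did not overlap in the same direction in 139 (60.7%), against 16.2% of all. Of the windows with MLL-AF9 higher, 168 were measured, MLL-AF9 was the higher WT model in 152 (90.5%) against 45.8% of all, and the WT libraries did not overlap in the same direction in 93 (55.4%) against 10.5% of all. The WT libraries are independent of the choice of windows, but windows of intermediate or variable level reach any difference more easily, so these shares describe the windows and do not single them out.

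The WT difference was the smaller one. A WT gap of 25 points was reached in 39 windows with cMyc-Bcl2 higher (17.0%, against 0.571% of all) and in 34 with MLL-AF9 higher (20.2%, against 0.291% of all). Read from the other side, these are 24.8% of the 157 and 42.5% of the 80 windows separated in WT. The median difference of the same windows was 44.0 points in knockin and 17.2 in WT where cMyc-Bcl2 was higher. It was -47.5 and -21.1 points where MLL-AF9 was higher. Each genotype was read over its own covered CpGs, which can differ within a window. Windows are chosen here at their extremes in knockin, and a smaller value elsewhere follows from such a choice in part. The WT models lay under 10 points apart in 78 (34.1%) and 33 (19.6%) of the windows, against 86.6% of all. Depth differed between knockin and WT libraries, as given above, and its part in the WT counts was not tested.

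The fit of the 5 WT libraries called 6 windows with cMyc-Bcl2 higher (2.62%, against 0.0436% of all) and 5 with MLL-AF9 higher (2.98%, against 0.0364% of all), by the same rule. Over all 29050 WT windows, shared with knockin or not, there were 14 (0.0482%) and 10 (0.0344%) calls. The 5, picked because they were called, lay at mm9 chr7:88020657-88020996 and mm9 chr7:88021039-88021184, mm9 chr13:114403512-114403677, mm9 chr16:14364053-14364117 and mm9 chr19:5423580-5423641. At the one on chromosome 19, 1534 bp from the start of AI837181, WT stood at 19.05 and 23.9% against 83.1, 89.1 and 76.6% (limma-moderated adjusted p = 0.0437), and knockin at 34.1 and 34.1% against 95.9, 96.5 and 94.2%.

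**Figure D4:**
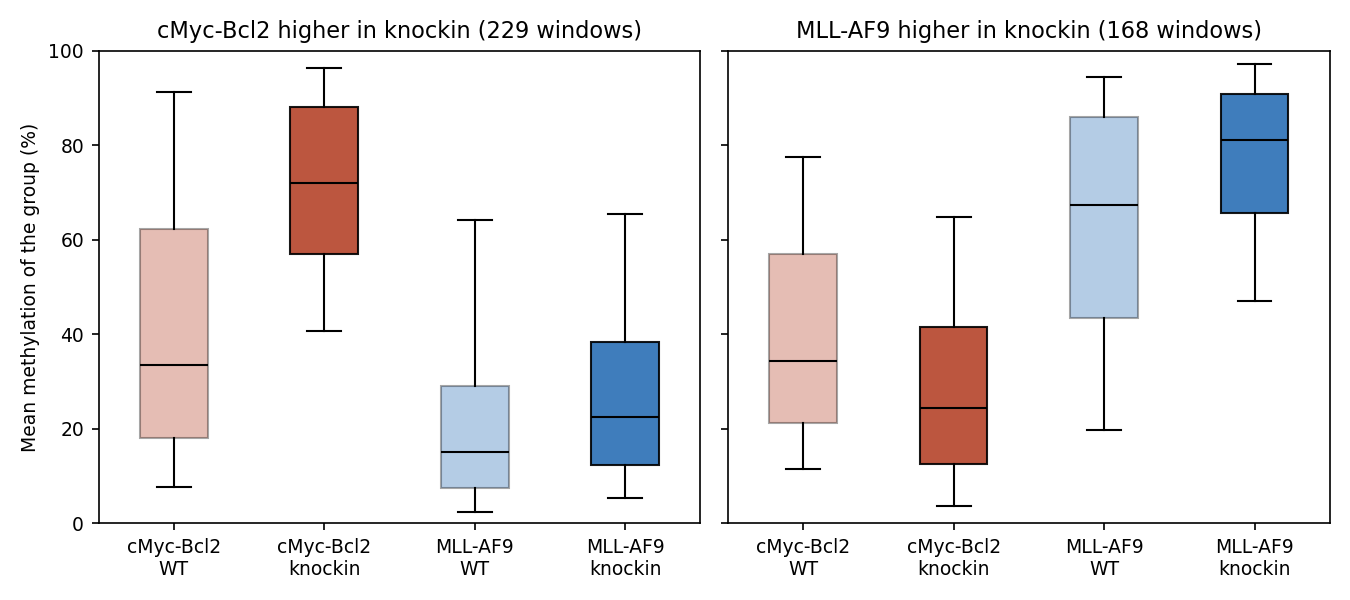
Group mean methylation (y axis, %) in WT (pale) and knockin (dark) libraries of both models. Shown are the separated windows measured in both genotypes, 229 with cMyc-Bcl2 higher (left) and 168 with MLL-AF9 higher (right). Levels use the CpGs covered in each genotype. Boxes span the quartiles with the median, and whiskers the 5th to 95th percentile of windows; on the left cMyc-Bcl2 has a median of 33.6% in WT and 71.9% in knockin, and on the right it has 34.3 and 24.5%.

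The 2 directions had different courses from WT to knockin. Unless shared CpGs are named, levels here use the CpGs covered in each genotype, which can differ. Where cMyc-Bcl2 was higher, its median stood at 33.6% in WT and 71.9% in knockin, and the MLL-AF9 median at 15.2 and 22.4%. Of the 222 such windows with CpGs shared by all 10 libraries, cMyc-Bcl2 was at least 10 points higher in knockin in 184. MLL-AF9 was so in 60. Over these shared CpGs the median of knockin minus WT was 32.2 points in cMyc-Bcl2 and 4.10 in MLL-AF9. Where MLL-AF9 was higher, its median stood at 67.4% in WT and 81.1% in knockin, while the cMyc-Bcl2 median stood at 34.3 and 24.5%. Of those 164 windows, MLL-AF9 was at least 10 points higher in knockin in 89, and cMyc-Bcl2 at least 10 points lower in 79. All of these values include the knockin libraries that chose the windows, and that choice favours such moves. Shares over all windows were not counted at 10 points, so the counts describe these windows alone. Without a size limit, both cMyc-Bcl2 knockin libraries lay above both WT ones in 26.2% of the 27505 windows measured in both genotypes. All MLL-AF9 knockin libraries lay above their WT ones in 20.5%.

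The course also varied with density. Among windows with cMyc-Bcl2 higher, WT libraries did not overlap in the same direction in 92 of 121 sparse windows, 40 of 88 of the middle class and 7 of 20 dense ones, against 19.6, 14.8 and 13.3% of all windows of each class. The median WT difference there was 26.3, 6.32 and 5.24 points. A WT gap of 25 points was reached in 29, 10 and 0 of them, and the difference between density classes was not tested. Among windows with MLL-AF9 higher, the counts were 80 of 135 in sparse windows and 12 of 29 in the middle class, against 11.8 and 9.42% of all, with median WT differences of -21.0 and -23.0 points.

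Some windows went against the WT order. WT libraries did not overlap in the opposite direction in 9 of 229 windows with cMyc-Bcl2 higher (3.93%, against 10.5% of all) and in 2 of 168 with MLL-AF9 higher (1.19%, against 16.2% of all). The 2 are named for that: at mm9 chr8:73340829-73340879, 22765 bp from a matched start, MLL-AF9 stood at 2.65, 6.16 and 3.41% in WT and 92.0, 89.4 and 61.7% in knockin, and cMyc-Bcl2 at 15.2 and 37.8% in WT and 15.5 and 3.97% in knockin. At mm9 chr4:114168047-114168130, MLL-AF9 stood at 69.8, 78.6 and 73.9% in WT and 86.8, 92.9 and 92.6% in knockin, and cMyc-Bcl2 at 81.4 and 87.3% in WT and 52.0 and 60% in knockin.

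Over the whole of the measured genome, the distance between the models was larger in knockin than in WT, but not beyond what exchanging libraries gave. The mean absolute difference between model means over 27019 windows was 5.66 points in knockin and 4.48 in WT. The excess of 1.18 points had a two-sided exact permutation p of 0.333 over 120 arrangements of genotype within oncogene (0.444 after Benjamini-Hochberg adjustment over 4 such tests). In dense windows the distance was 3.15 points in knockin and 1.63 in WT, in the middle class 5.18 and 3.48, and in sparse windows 7.88 and 7.51 (exact permutation p = 0.333, 0.333 and 0.667). None of the 4 tests passed, and the classes were not tested against each other.

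Mean levels over the 320305 CpGs of all 10 libraries had the same shape. The dense class stood 1.37 points higher in cMyc-Bcl2 than in MLL-AF9 in knockin (5.18% ± 0.368, n = 2, and 3.81% ± 0.487, n = 3, SD) and 0.112 points higher in WT (3.13% ± 0.702 and 3.02% ± 0.303). The exact permutation p was 0.2 in knockin, the smallest possible, and 0.8 in WT. These p-values are 0.4 and 0.873 after adjustment over the 12 tests. In sparse windows cMyc-Bcl2 was 1.41 points lower in knockin (exact permutation p = 0.4) and 1.20 points higher in WT (exact permutation p = 0.2). The difference between genotypes in these values was tested only through the distances above.

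Window by window, the interaction of oncogene and knockin was called in 0 of 27019 windows by the quasi-binomial fit of all 10 libraries (2954 at an unadjusted p under 0.05), and in 0 by limma on M-values (2529 at an unadjusted p under 0.05). No separated window was called by either test. In 83 windows both models differed by at least 10 points between genotypes without overlap, with cMyc-Bcl2 lower and MLL-AF9 higher in knockin, and in 22 windows the other way. Without a size limit these counts were 790 (2.92% of 27019) and 72 (0.266%). Of the 164 windows with MLL-AF9 higher 28 had cMyc-Bcl2 lower and MLL-AF9 higher in knockin (17.1%), and of the 222 with cMyc-Bcl2 higher 6 had the opposite pattern (2.70%), shares that the choice on knockin values favours. Across the 27505 windows, the difference between models in knockin and in WT had a Pearson's r of 0.404. The Spearman rank correlation was 0.252. Both differences share sequence, depth and part of their CpGs.

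Distances between single libraries were also taken, over the 39036 windows of the knockin comparison. They carry more counting noise than the distances between model means above, which used another set of windows. The 2 kinds of distance are therefore not directly comparable. The 2 cMyc-Bcl2 knockin libraries lay 5.65 points apart on average over the windows (Pearson's r = 0.969), the MLL-AF9 knockin libraries 3.91 to 4.68 points (r = 0.978 to 0.987), and libraries of different models 7.07 to 7.68 points (r = 0.946 to 0.954). A library pair was at least 25 points apart in 4.49% of windows within cMyc-Bcl2, in 1.75 to 3.09% within MLL-AF9 and in 7.30 to 8.31% between models.

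Counts of windows without overlap at any size led elsewhere than counts of separated windows. Without a minimum gap, 6189 windows were higher in cMyc-Bcl2 (15.9% of windows) and 10946 in MLL-AF9 (28% of windows). Of the latter, 6851 (62.6%) differed by under 5 points, with a median of 2.47 points, against 1628 (26.3%) and a median of 11.6 points for cMyc-Bcl2. In the 14255 windows under 10% in both models the median levels were 0.828 and 0.829% in cMyc-Bcl2, against 1.28, 1.58 and 1.34% in MLL-AF9. These small excesses lie beside the higher share of mitochondrial calls read as methylated in the MLL-AF9 knockin libraries given above, whose part in them was not tested.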

How the data were processed

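Reduced representation bisulfite sequencing of 10 mouse leukaemic spleen libraries was used, of which 5 carry the Dnmt3b knockin. Per the labels' protocols, MspI fragments of 40 to 280 bp were sequenced. The submitters' processing notes name build mm9 and the tools Bismark 0.7.4, Trim Galore 0.2.2, methylKit and CASAVA, with no settings for any of them. For each position the authors deposited 2 whole numbers, taken as methylated and unmethylated read counts.

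Of 8185408 listed positions, 57.4% had a neighbour 1 bp away, so the 2 strands of a CpG were listed apart; here they were joined, to 5837757 CpGs. Levels are methylated reads over all reads, in percent. A quasi-binomial logistic model with dispersion moderated by limma 3.58.1 (R 4.3.3) and held at 1 or above was fitted over all windows, with an F-test and Benjamini-Hochberg adjustment. On simulated counts for the 39036 windows of the knockin comparison the share called was 39.5% at a true change of 25 points, 88.5% at 40 points and 95.0% at 60 points. Of all calls 2.41% were false, a share that depends on the 200 windows changed per size. Calls also needed an observed difference of 25 points. The counts were drawn with the dispersion of the same fit, so the simulation cannot check that model or the dependence on single libraries. Distances and means were tested by exact permutation of libraries. Other steps ran in Python 3.11.15 (pandas 2.3.3, scipy 1.17.1, numpy 2.4.6).

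RefSeq promoter sequences (GRCm38.p6; none used from chromosome 18) were placed on the files' own positions by their CpG pattern, with at least 12 positions matched and no other place above 8; 9635 of 9641 matches (99.9%) had an offset within 20000 bp of that of a neighbouring match. No coordinates were converted. Windows were named by rule: per direction the 8 of at least 5 CpGs with the widest gap, 3 pairs, and the 2 just inside and outside the limit, with all listed promoters; other named items were picked after their values were seen. Members and lists were chosen with earlier results of these data known. Replicates are numbered in accession order and pair no samples. Alternatives were coverage minimums of 5 and 20 reads, 500-bp windows, 5 CpGs per window, other gaps and minimum differences, weighting by reads, limma on M-values (0.5 added), the 4 groups in one fit, leaving out chromosomes 15 and 16, the deepest 0.1% of CpGs or each library; strands left unjoined, and the counts by density class and of promoters, were added after seeing the data. PCR copies are counted as reads, so depth speaks to counting error alone. Levels of X and Y, exons and introns were not analysed here.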

Additional observations from a re-analysis of the deposited data

Results flagged for a closer look

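Among the windows and promoters named in the report, 3 windows and 2 promoters had every cMyc-Bcl2 knockin library on one side of its WT libraries and every MLL-AF9 knockin library on the other. Over all windows the pattern was found in 72 (cMyc-Bcl2 higher in knockin) and 790 (MLL-AF9 higher in knockin) of 27019. None of these differences between the models' knockin effects was tested on its own, and the interaction fit called 0 windows by the quasi-binomial test (2954 at an unadjusted p under 0.05; 0 by limma on M-values). At mm9 chr9:78434094-78434151, near Slc17a5, the effects (knockin minus WT) were -7.78 points in cMyc-Bcl2 and 36.9 in MLL-AF9, a difference of -44.7 points. At mm9 chr2:167364048-167364075 they were -32.7 and 23.2 points, a difference of -55.9, and at mm9 chr4:114168047-114168130 -28.4 and 16.7 points, a difference of -45.1. In the promoter of Fam83b they were 36.3 and -24.3 points, a difference of 60.7, and in that of Ctnna2 36.0 and -10.9 points, a difference of 46.9. All 5 were chosen for their knockin levels, which enter the effects. Each genotype's level used its own covered CpGs, so part of an effect can come from different CpGs. Over CpGs shared by all 10 libraries, the window at the Ctnna2 promoter had effects of 32.4 and -10.3 points, a difference of 42.7. The window near Slc17a5 had -7.62 and 35.8 points there, a difference of -43.4.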

How the results depend on the processing

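Direction held for the distance between models in knockin against WT under each alternative run, and for the mean difference under each except weighting by reads, where it was -2.38 points. Counts depended on depth. With at least 20 reads there were 148 and 87 separated windows (cMyc-Bcl2 and MLL-AF9 higher), 137 and 74 calls, 66 and 66 sparse and 18 and 3 dense windows and 8 and 1 promoters, and WT libraries did not overlap the same way in 48.1 and 40.0% of separated windows; with at least 5 reads the latter was 63.3% for MLL-AF9. With at least 5 CpGs there were 156 and 81 separated windows, 258 and 95 calls, and 47.7 and 47.5%. With strands unjoined there were 388 and 301 calls, 253 separated windows with MLL-AF9 higher and 11 promoters with cMyc-Bcl2 higher. limma on M-values gave 329 and 404 calls, the opposite order to the 596 and 547 of the quasi-binomial fit, the 4 groups in one fit 566 and 268, and a minimum difference of 10 points 1219 and 902. Separated windows numbered 1062 and 911 by no overlap and a mean difference of 25 points, 1590 and 1328 with a gap of 10 and 78 and 121 with a gap of 40.

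Leaving out 1 library gave 395 to 1025 and 469 to 1046 separated windows, 0 to 894 and 0 to 826 calls, 24 to 105 and 6 to 14 dense windows, 24 to 89 and 3 to 9 promoters, and 44.5 to 71.9% and 42.2 to 73.8% without overlap in WT; mean difference and distance stayed at 0.152 to 1.43 and 0.421 to 1.73 points. Without a library fewer must be separated, which raises counts by construction; a lone cMyc-Bcl2 library was taken to vary like MLL-AF9. Of 469 values of named windows and promoters 455 moved within 1 SD, 13 moved more, and 1 changed sign: the window at mm9 chr12:8754231-8754287, to 1.53 points with strands unjoined. No paired analysis was possible because the labels give no replicate numbers shared between groups.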
